A study of Mus musculus with 24 samples.

Results

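*Stra8*, *Rhox5*, *Dazl*, *Mael*, *Sycp1*, *Sycp3*, *Ddx4*, *Taf7l*, *Hormad1* and *Tex101* are mouse genes whose products work in germ cells or the testis and which are known as targets of promoter DNA methylation in other tissues. These 10 genes of the 22889 entries in the RPKM table (read counts scaled by gene length and by the mapped reads of the sample) were followed across sorted motor neuron cultures. They were chosen by name, on the differences of *Stra8* and *Rhox5* already known between oculomotor and spinal GFP+ cells, so the levels in GFP+ cells are given as a description. DNA methylation itself was not measured, and the genes are called germline genes below.

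In the embryo the promoters of many germline genes are methylated around implantation by the de novo methyltransferases, and Dnmt1 with Uhrf1 copies the mark at each division. At many of them the variant Polycomb complex PRC1.6 also represses transcription, binding E2F sites and E-boxes through its E2F6 and MGA subunits. Neurons normally keep these genes silent, while pluripotent stem cells transcribe some of them.

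Oculomotor neurons came from *Islet1*-GFP mouse embryonic stem cells (mESCs) that carried a *Phox2a* transgene under the *nestin* enhancer, which is active in neural progenitors, and embryoid bodies were given 250 nM SAG, a Smoothened agonist, with 100 ng/ml FGF8 for 5 days. Spinal motor neurons came from *Hb9*-GFP mESCs without the transgene, given 500 nM SAG and 100 nM retinoic acid for 5 days. Cells were then sorted by FACS, and GFP+ and GFP− fractions of 6 oculomotor and 6 spinal replicates were sequenced, 24 samples in 4 groups of 6. Line, reporter, transgene and patterning factors all changed together between the cultures, so their effects cannot be told apart. Each culture came from 1 mESC line, and the labels do not say whether replicates were separate differentiations, so the spread may be partly technical.

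The promoters of 7 of the genes are printed first, because silencing of germline genes acts at CpG-rich promoters. Each is the RefSeq window from 250 bases before to 50 after the annotated start, on GRCm38.p6, read 5′ to 3′ on the strand of the gene. Capitals mark the E2F6 motif core TCCCGC, or its reverse complement GCGGGA, and the E-box CACGTG. *Mael*, *Sycp1*, *Sycp3*, *Ddx4* and *Hormad1* hold both motifs, *Taf7l* holds the E-box alone, and *Stra8*, with the highest single level of the genes on the spinal GFP− side, holds neither.
Mael (chr1:166238695-166238994, minus strand): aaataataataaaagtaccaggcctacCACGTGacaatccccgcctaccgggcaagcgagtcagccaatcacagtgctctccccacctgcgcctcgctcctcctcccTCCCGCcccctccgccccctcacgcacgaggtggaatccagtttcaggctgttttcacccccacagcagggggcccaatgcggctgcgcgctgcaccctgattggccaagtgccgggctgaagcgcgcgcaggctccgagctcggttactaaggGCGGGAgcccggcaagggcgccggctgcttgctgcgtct
Sycp1 (chr3:102936051-102936350, minus strand): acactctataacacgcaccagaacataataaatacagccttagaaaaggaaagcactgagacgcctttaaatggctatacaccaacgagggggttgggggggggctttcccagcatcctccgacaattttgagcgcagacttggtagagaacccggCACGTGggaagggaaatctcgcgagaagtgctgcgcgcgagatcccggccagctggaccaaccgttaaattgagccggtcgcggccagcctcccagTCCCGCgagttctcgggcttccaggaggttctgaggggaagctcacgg
Sycp3 (chr10:88459337-88459636, plus strand): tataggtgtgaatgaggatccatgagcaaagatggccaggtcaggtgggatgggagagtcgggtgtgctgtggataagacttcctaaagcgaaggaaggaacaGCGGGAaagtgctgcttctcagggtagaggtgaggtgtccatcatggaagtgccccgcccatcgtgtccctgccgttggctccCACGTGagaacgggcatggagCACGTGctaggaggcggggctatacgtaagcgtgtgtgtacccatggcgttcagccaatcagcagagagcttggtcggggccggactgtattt
Ddx4 (chr13:112652261-112652560, minus strand): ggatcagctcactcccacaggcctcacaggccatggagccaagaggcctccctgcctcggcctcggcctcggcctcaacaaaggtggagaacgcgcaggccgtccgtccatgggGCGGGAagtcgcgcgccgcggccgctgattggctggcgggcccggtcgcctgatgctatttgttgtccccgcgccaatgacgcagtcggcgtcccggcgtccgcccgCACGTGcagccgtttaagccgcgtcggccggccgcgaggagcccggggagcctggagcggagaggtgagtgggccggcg
Hormad1 (chr3:95559427-95559726, plus strand): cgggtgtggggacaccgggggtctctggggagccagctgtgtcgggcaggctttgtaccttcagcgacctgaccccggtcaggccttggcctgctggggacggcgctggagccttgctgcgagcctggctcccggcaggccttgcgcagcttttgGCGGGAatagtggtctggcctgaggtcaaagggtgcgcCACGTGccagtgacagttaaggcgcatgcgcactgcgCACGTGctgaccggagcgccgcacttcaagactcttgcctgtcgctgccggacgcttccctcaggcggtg
Taf7l (chrX:134476441-134476740, minus strand): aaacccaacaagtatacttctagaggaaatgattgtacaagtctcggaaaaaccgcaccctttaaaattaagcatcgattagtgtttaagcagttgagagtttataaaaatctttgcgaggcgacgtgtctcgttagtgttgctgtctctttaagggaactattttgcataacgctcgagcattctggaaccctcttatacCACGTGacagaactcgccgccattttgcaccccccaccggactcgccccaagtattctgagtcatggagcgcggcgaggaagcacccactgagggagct
Stra8 (chr6:34920698-34920997, plus strand): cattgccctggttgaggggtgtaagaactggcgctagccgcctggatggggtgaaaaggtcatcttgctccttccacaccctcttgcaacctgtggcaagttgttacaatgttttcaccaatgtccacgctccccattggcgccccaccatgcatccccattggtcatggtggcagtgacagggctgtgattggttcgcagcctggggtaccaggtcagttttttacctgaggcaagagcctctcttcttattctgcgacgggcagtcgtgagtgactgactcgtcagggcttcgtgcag

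Both strands were searched, and no match of 1 motif overlapped a match of the other in these windows. The E2F6 core was in 5 of the 10 windows and in 20.0% of the 27025 RefSeq promoters of the same length. The E-box was in 6 of the 10 and in 7.24% of all, and 5 of the 10 held both, against 2.05% of all. *Sycp3* and *Hormad1* held 2 E-boxes each. *Dazl*, *Stra8*, *Rhox5* and *Tex101* held neither motif in these windows. The windows of *Rhox5*, *Tex101* and *Stra8* start 50234, 4625 and 785 bases from the GENCODE start of the gene, so another promoter may be the one used. The other 7 lay within 165 bases of it. The ratio of observed to expected CpG had a median of 0.389 over all promoters. *Taf7l* (1.03), *Ddx4* (0.978), *Sycp1* (0.874), *Dazl* (0.795), *Mael* (0.78), *Hormad1* (0.713), *Tex101* (0.7) and *Sycp3* (0.666) lay above that median, as did *Stra8* at 0.43, while the distant *Rhox5* window was at 0.363. These matches and ratios describe the sequence and do not show binding or methylation.

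**Figure D1:**
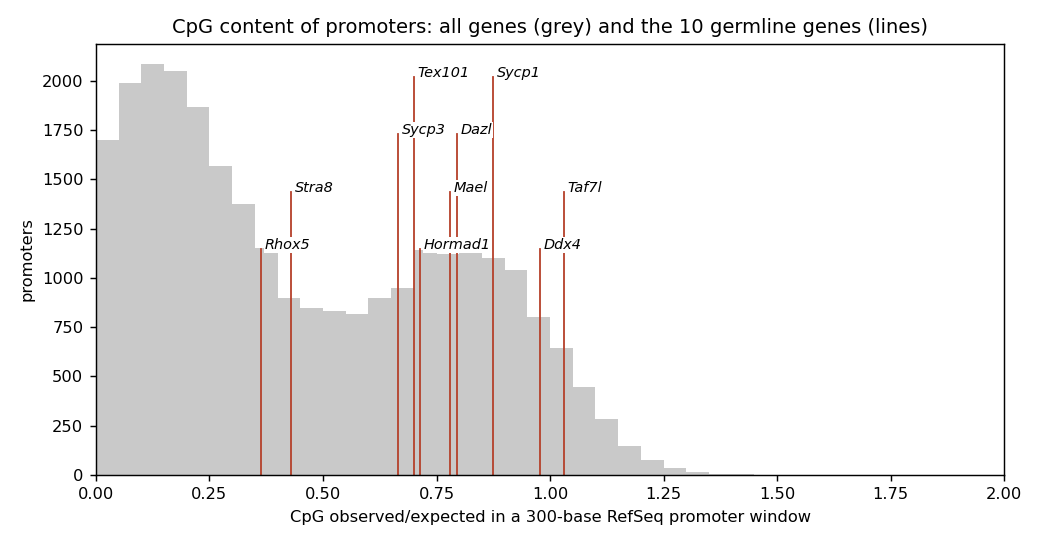
Number of RefSeq promoter windows (y axis) by their CpG observed/expected ratio (x axis), in grey for all 27025 promoters, with a red line at the value of each germline gene. *Rhox5* and *Stra8* sit near the median of 0.389, and the other 8 between 0.666 and 1.03.

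The estimated depth was 752529 to 7675428 mapped reads per sample, higher in replicates 5 and 6 (4822576 to 7675428) than in replicates 1 to 4 (752529 to 4642207). The sorted oculomotor cells matched their label in *Isl1* (249 ± 77.8 RPKM in GFP+ against 1.2 ± 0.405 in GFP−, SD, n = 6). *Mnx1*, the gene of the Hb9 reporter, separated the spinal fractions in 5 of 6 pairs. In the pair labelled spinal 4 it did not, with 43.1 RPKM in the GFP+ and 69.4 in the GFP− library, and *Isl1* was at 7.63 and 8.56. These 2 libraries also correlated more closely than any other pair of fractions (Pearson r = 0.956, against 0.785 to 0.902). In the spinal GFP− sample 2, the 10 highest entries held 76.26% of the summed RPKM. Some of the results that rest on these libraries are also given without them.

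In the oculomotor GFP+ cells the germline genes were close to absent. The RPKM of the 10 genes summed to between 0.412 and 2.73 per sample, and at most 1 of the 10 exceeded 1 RPKM in any sample. In spinal GFP+ cells the sum ran from 10.2 to 694 (median 192), and between 1 and 9 of the genes exceeded 1 RPKM. In the GFP− fractions the sum was 11.7 to 142 in oculomotor and 92.9 to 717 in spinal samples. The sums overlapped between spinal and oculomotor cells in the GFP− fractions and did not in the GFP+ fractions. Outside oculomotor GFP+ cells most of each sum came from *Stra8* and *Rhox5*, and none of the other 8 genes exceeded 34.8 RPKM in any sample. In bulk samples, a smaller share of expressing cells and less RNA per cell cannot be told apart.

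**Figure D2:**
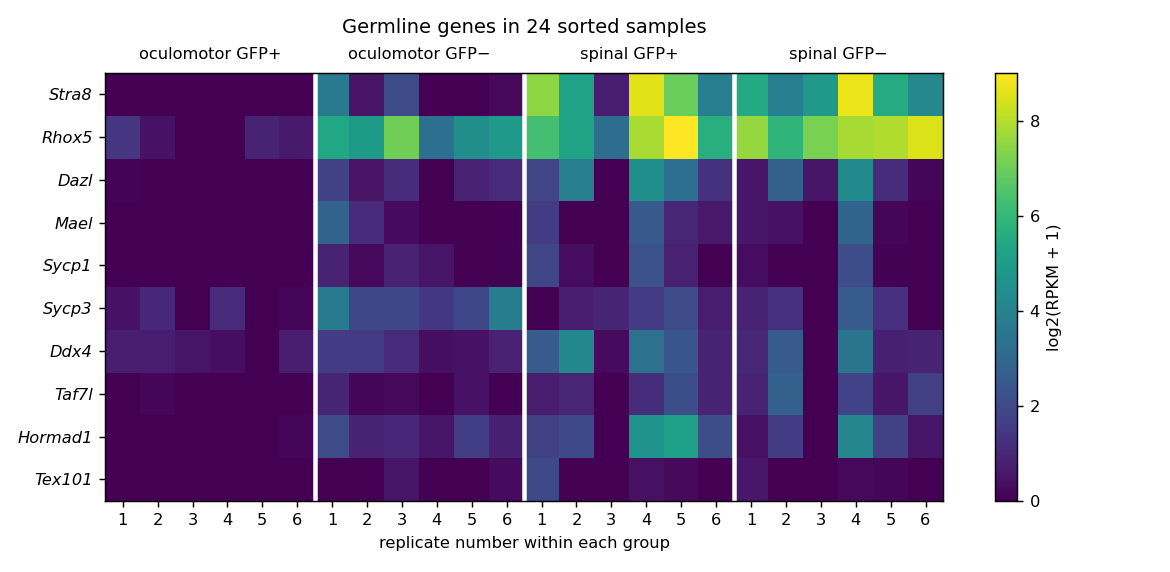
Level of each germline gene (rows) as log2(RPKM + 1) by colour in every sample (columns, numbered by replicate within the 4 sorted groups). The oculomotor GFP+ block is dark throughout, with sums of at most 2.73 RPKM, while *Stra8* and *Rhox5* are bright in the spinal blocks and replicate 4 is bright in both spinal fractions.

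*Stra8* (ENSMUSG00000029848, GRCm38 chr6:34920163-34939344, plus strand) encodes the switch for entry into meiosis that retinoic acid induces in germ cells. It was listed at 0 in all 6 oculomotor GFP+ samples, where 1 read would have been worth 0.0803 to 0.392 RPKM. In oculomotor GFP− samples it ran from 0 to 12.4 RPKM (median 0.284). In spinal samples it was detected in all 12, with 0.641 to 384.5 RPKM (median 80.0) in GFP+ and 13.8 to 427.5 (median 36.0) in GFP− cells. Every spinal sample thus lay above every oculomotor sample of the same fraction. The log2 difference was 5.47 ± 1.03 (SE) in GFP+ and 4.36 ± 0.993 in GFP− cells, on the log2(RPKM + 1) scale, which understates changes near 0. Both highest values were in spinal pair 4, and without that pair the differences were 4.85 and 3.71. Among the spinal samples of the GFP+ fraction, sample 3 stood lowest at 0.641 RPKM while its GFP− partner was at 28.0.

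*Rhox5* (ENSMUSG00000095180, GRCm38 chrX:37804842-37808876, plus strand) encodes a homeobox protein of the X-linked Rhox cluster, made in Sertoli cells, placenta and embryonic stem cells. It was 0 to 1.71 RPKM (median 0.468) in oculomotor GFP+ and 8.85 to 131 (median 28.2) in oculomotor GFP− samples. In spinal cultures it was 8.43 to 514 (median 64.2) in GFP+ and 58.7 to 367 (median 208) in GFP− samples. The medians of the 4 groups were thus in the order oculomotor GFP+, oculomotor GFP−, spinal GFP+, spinal GFP−, and of the neighbours in that order only the oculomotor fractions did not overlap. The log2 difference between cultures was 5.65 ± 0.764 in GFP+ and 2.51 ± 0.704 in GFP− cells. Without spinal pair 4 these were 5.33 and 2.44.

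*Dazl* and *Ddx4* (Vasa) encode RNA-binding proteins that mark germ cells. *Dazl* (ENSMUSG00000010592, GRCm38 chr17:50279395-50293636, minus strand) was at 0 in 5 of 6 oculomotor GFP+ samples and at 0.0732 in the sixth, and at 0 to 2.34 RPKM (median 0.963) in oculomotor GFP− samples. In spinal samples it was 0 to 21.2 (median 5.75) in GFP+ and 0.0958 to 18.4 (median 0.835) in GFP− cells. All but 1 of the spinal GFP+ samples were above every oculomotor GFP+ sample, the exception being sample 3 at 0. *Ddx4* was 0 to 0.667 RPKM (median 0.508) in oculomotor GFP+, 0.26 to 1.94 (median 0.947) in oculomotor GFP−, 0.203 to 17.4 (median 4.69) in spinal GFP+ and 0 to 10.2 (median 0.901) in spinal GFP− samples. The groups overlapped in each comparison of *Ddx4* between the cultures. The differences in GFP+ cells were 2.45 ± 0.641 for *Dazl* and 1.8 ± 0.586 for *Ddx4*, and in GFP− cells 0.687 ± 0.668 and 0.489 ± 0.577. Both genes had their highest GFP− value in spinal sample 4. Over the fits that left out 1 sample, the lowest GFP− differences were 0.146 for *Dazl* and 0.0838 for *Ddx4*. In GFP+ cells the lowest were 2.05 and 1.42.

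*Sycp1*, *Sycp3* and *Hormad1* build the axis and the synaptonemal complex of meiotic chromosomes. *Hormad1* was at 0 in 5 of 6 oculomotor GFP+ samples, with 0.0837 RPKM in sample 6, and at 0.429 to 3.19 (median 0.912) in oculomotor GFP− samples. In spinal samples it was 0 to 34.8 (median 3.19) in GFP+ and 0 to 16.2 (median 1.23) in GFP− cells. Its highest values were 34.8 in spinal GFP+ sample 5 and 23.2 in sample 4, and the other 4 samples were at or under 3.39. *Sycp1* was listed at 0 in all oculomotor GFP+ samples and did not exceed 0.872 RPKM in oculomotor GFP− samples, 3.67 in spinal GFP+ or 3.37 in spinal GFP− samples. *Hormad1* differed by 2.58 ± 0.72 and *Sycp1* by 0.876 ± 0.354 between the cultures in GFP+ cells. In GFP− cells these differences were 0.247 ± 0.693 and near 0 (-8.68e-05 ± 0.366), and without spinal pair 4 they were -0.294 and -0.343.

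*Sycp3* followed another order. It was highest in oculomotor GFP− samples, at 1.76 to 12.8 RPKM (median 2.79), against 0 to 5.03 (median 1.11) in spinal GFP−, 0 to 3.28 (median 0.797) in spinal GFP+ and 0 to 1.12 (median 0.228) in oculomotor GFP+ samples. In GFP− cells the difference, spinal minus oculomotor, was -1.45 ± 0.473, and -1.77 without spinal pair 4, whose GFP− library held the highest spinal value. Of the 1264 exonic bases of *Sycp3*, 660 (52.2%) overlap exons of *Chpt1* on the opposite strand. The libraries did not mark strand, so reads of the 2 genes cannot be told apart there. *Chpt1*, a choline phosphotransferase gene, ran from 0.978 to 7.73 RPKM in oculomotor GFP+ and from 3.39 to 8.89 in oculomotor GFP− samples. In spinal samples *Chpt1* ran from 1.71 to 11.9 RPKM in GFP+ and from 2.35 to 13.0 in GFP− cells.

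*Mael*, needed for piRNA-guided silencing of transposons, was listed at 0 in all oculomotor GFP+ samples and reached 6.16 RPKM in oculomotor GFP−, 4.73 in spinal GFP+ and 6.52 in spinal GFP− samples, with medians of 0.101, 0.742 and 0.211. *Taf7l*, a germ cell variant of a TFIID subunit, was 0 to 0.121 RPKM in oculomotor GFP+ and 0 to 0.921 in oculomotor GFP− samples. In spinal samples *Taf7l* was 0 to 3.45 (median 0.914) in GFP+ and 0 to 5.79 (median 1.56) in GFP− cells, with the highest value in GFP− sample 2. *Tex101*, a germ cell surface protein gene, was listed at 0 in all oculomotor GFP+ samples and was at most 0.496 RPKM elsewhere except in spinal GFP+ sample 1, at 3.02. The reads behind these 3 genes were few, with an estimated maximum of 46.8 for *Mael*, 56.0 for *Taf7l* and 14.0 for *Tex101* in any sample.

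**Figure D3:**
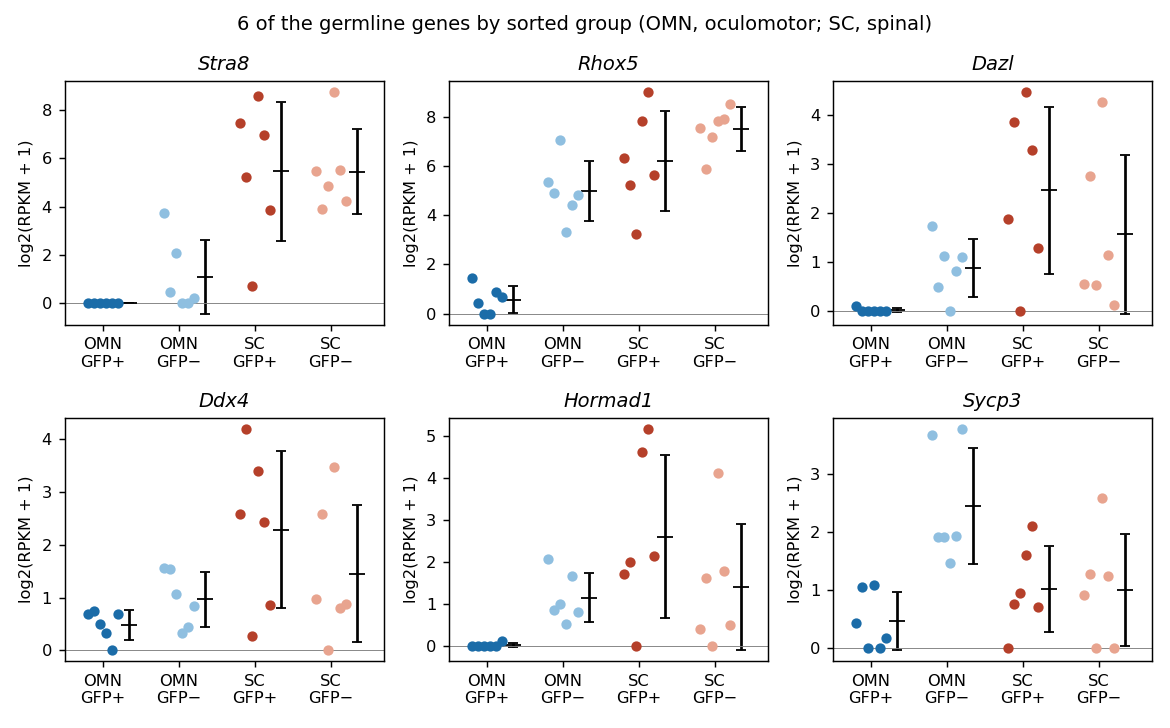
Level of 6 of the germline genes as log2(RPKM + 1) (y axis) in each sorted group (x axis). Points are samples in order of replicate number, and the bar beside them is the mean ± SD of 6 samples. The oculomotor GFP+ group has the lowest mean in each panel, though its *Sycp3* points overlap the spinal ones, *Stra8* and *Rhox5* separate the GFP+ groups fully, and *Sycp3* is highest in oculomotor GFP− samples.

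Across the 10 genes the difference in GFP+ cells, spinal minus oculomotor, was positive for all 10, with a median of 1.38 against 0.04 over all genes tested. For 4 of them, listed at 0 in all oculomotor GFP+ samples, no other direction was possible. Without spinal pair 4 the median was 1.25. *Stra8* and *Rhox5* passed the limma threshold (Benjamini-Hochberg adjusted p under 0.05), as did 0.249% of all genes in that direction. *Rhox5* passed in all 12 fits that left out 1 sample and *Stra8* in 4 of 12. In these 2 genes every spinal sample exceeded every oculomotor sample, as in 0.697% of all genes. The genes were listed with this contrast known, and no more is read from it. In GFP− cells the median difference was 0.37, against 0.04 over all genes, and 7 of 10 were positive. *Stra8* alone passed there, with 0.55% of all genes passing in that direction, and it passed in 18 of 24 fits that left out 1 sample. It was also the only one of the 10 whose GFP− groups did not overlap, against 0.938% of all genes. Without spinal pair 4 the GFP− median fell to 0.05, and without spinal GFP− sample 2 as well it was -0.295.

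The fractions were then compared within each culture, where line and factors are the same. The oculomotor GFP+ samples are the ones whose low levels were known when the genes were listed, so the calls here are no independent support for that list. In oculomotor cultures all 10 genes had lower means in GFP+ than in GFP− cells, with a median log2 difference of -0.78, and 4 of them could not differ in the other direction, being at 0 in all the GFP+ samples. *Rhox5* was lower in GFP+ cells by 4.41 ± 0.704 (limma, adjusted p = 0.000264) and *Sycp3* by 1.99 ± 0.473 (limma, adjusted p = 0.0114), each in 6 of 6 pairs. These are 2 of 10, and 2.34% of all genes were called lower in GFP+ cells. *Rhox5* stayed called in all 24 fits that left out 1 sample, as did *Sycp3*, and *Sycp3* lost its call when only replicates 1 to 4 were fitted (limma, adjusted p = 0.191). With the more deeply sequenced replicates 5 and 6 alone neither passed (limma, adjusted p = 0.0717 and 0.0939). *Hormad1* was lower in 6 of 6 pairs, with groups that did not overlap (0 to 0.0837 against 0.429 to 3.19 RPKM), but did not pass (limma, adjusted p = 0.443). It passed when the oculomotor samples were fitted without the spinal ones (limma, adjusted p = 0.00592), as did *Dazl* (adjusted p = 0.0233, against 0.591). That fit called 1144 of 18932 genes lower in GFP+ cells, against 519 of 22179 in the main fit. *Ddx4* was also lower in 6 of 6 pairs, and *Dazl* and *Sycp1* in 5 of 6 with the remaining pair at 0 in both fractions. How many of all genes had such pair counts, or no overlap between these fractions, was not counted. These traits are therefore not read as particular to the 10 genes. Between these fractions 4015 of all 22179 genes had an unadjusted p under 0.05, as had 2 of the 10.

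In spinal cultures none of the 10 genes was called between the fractions by limma, while 1.23% of all genes were called in either direction. None of the 10 had an unadjusted p under 0.05, against 2315 of all 22179 genes tested. *Hormad1* was higher in GFP+ cells by 1.2 ± 0.693 (limma, adjusted p = 0.59) and *Dazl* by 0.901 ± 0.668 (limma, adjusted p = 0.715), each in 5 of 6 pairs. *Rhox5* was lower in GFP+ cells in 4 of 6 pairs, by 1.27 ± 0.704 (limma, adjusted p = 0.562), and *Stra8* was higher in 3 pairs and lower in 3. Without spinal pair 4 the values were 1.34 for *Hormad1*, 1.04 for *Dazl* and -1.53 for *Rhox5*, and none passed. The pairs themselves differed. In spinal pair 5 all 10 genes were higher in GFP+ cells, in pair 1 it was 7 of 10, and in pair 3 it was 2, with 5 equal at 0. In oculomotor pairs between 5 and 10 genes were higher in GFP− cells and at most 1 in GFP+ cells.

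The difference between the cultures in this fraction step was largest for *Rhox5* (3.14 ± 0.996, limma interaction, adjusted p = 0.28), *Hormad1* (2.33 ± 0.98, adjusted p = 0.57) and *Sycp3* (2.01 ± 0.669, adjusted p = 0.332). None of the 10 passed, and 0.32% of all genes were called. Of the 10, 3 had an unadjusted p under 0.05, as had 1582 of all 22179 genes tested. With the replicate pairs as a block, *Hormad1* was called (limma, adjusted p = 0.0431), also without spinal pair 4 (adjusted p = 0.04). The block fit called 264 of 22179 genes higher and 189 lower, against 13 and 58 in the main fit. Without spinal pair 4 it called 253 of 21837 higher and 246 lower. *Rhox5* was called when spinal GFP+ sample 3 was left out (limma, adjusted p = 0.0475), a fit that called 49 of 22118 genes higher and 82 lower.

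**Figure D4:**
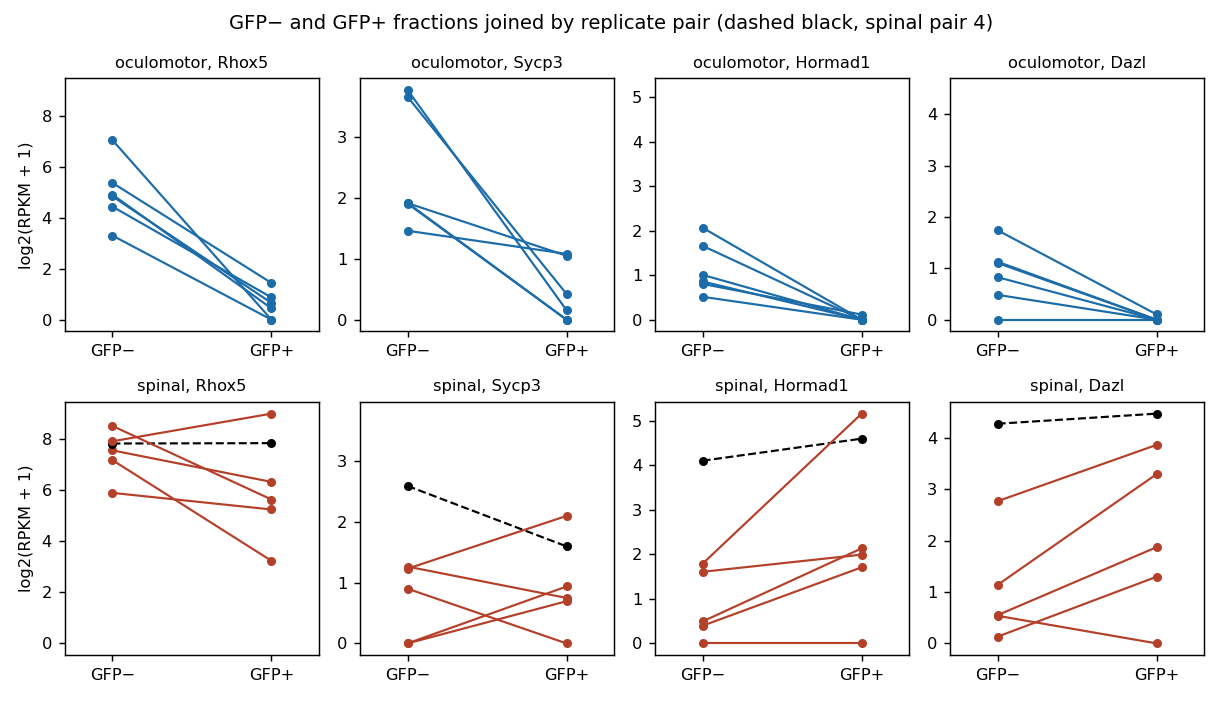
*Rhox5*, *Sycp3*, *Hormad1* and *Dazl* as log2(RPKM + 1) (y axis) in the GFP− and GFP+ fractions (x axis), with a line for each replicate pair, oculomotor above and spinal below. All oculomotor lines of *Rhox5*, *Sycp3* and *Hormad1* fall from GFP− to GFP+, and the spinal lines of *Rhox5* go both ways. The dashed spinal pair 4 changes by 0.01 for *Rhox5*, 0.2 for *Dazl* and 0.5 for *Hormad1*, and falls by 0.99 for *Sycp3*, on the log2 scale.

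The other germline genes were read from 4 further lists of 64 genes in all. In GFP+ cells 59 were tested, of which 16 were at 0 in all oculomotor samples and 1 in all spinal samples, so that their direction was fixed by the filter. Of the other 42, 35 were higher and 7 lower in spinal cells. Over all 19240 genes tested, 10802 were higher and 8438 lower, with genes at 0 throughout 1 group left in, so the 2 sets are unlike. Some of the 42, such as *Tex14* and *Sohlh2*, were above 0 in only 1 oculomotor GFP+ sample. Of the 59, 18 had an unadjusted p under 0.05, as had 1951 of the 19240. Genes that could differ in 1 direction only were left in both counts, so no excess is read from them. By limma 1 of the 59 was called. That gene was *Rec8*, the meiotic cohesin subunit, at 13.2 ± 11.4 RPKM in spinal and 0.297 ± 0.7 in oculomotor cells (log2 difference 3.14 ± 0.55, limma, adjusted p = 0.0199). Every spinal sample of *Rec8* was above every oculomotor one. *Rnf17*, a Tudor domain gene of the piRNA pathway, also had groups that did not overlap, with 9.88 ± 12.2 against 0.348 ± 0.373 RPKM, and did not pass (limma, adjusted p = 0.0909). The meiotic recombinase *Dmc1* was at 7.89 ± 11.3 against 0.414 ± 0.456 RPKM and did not pass either. *Tdrkh*, another piRNA pathway gene, at 8.16 ± 4.01 in spinal and 10.5 ± 3.72 RPKM in oculomotor GFP+ cells, and the testis helicase gene *Ddx25*, at 5.26 ± 3.0 and 7.71 ± 3.33, had lower means in spinal cells and did not pass. Leaving out oculomotor GFP+ sample 2 or 6 ended the call of *Rec8*, and leaving out spinal GFP+ sample 3 gave 3 calls. In GFP− cells and between the spinal fractions none of the 64 was called by limma, with 3 at an unadjusted p under 0.05 in each. Over all 22179 genes tested, 2500 in GFP− cells and 2315 between the spinal fractions were under 0.05.

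By list, and among genes above 0 in both GFP+ groups, 9 of 10 genes of meiotic chromosome structure, 9 of 10 of meiotic recombination, 10 of 12 of the piRNA pathway and 7 of 10 other germline and testis genes were higher in spinal cells. Between the oculomotor fractions 42 of the 64 were above 0 in both, of which 31 were lower and 11 higher in GFP+ cells. None of the 64 was called there by limma, and 9 had an unadjusted p under 0.05. Over all 22179 genes tested between the oculomotor fractions, 10822 were lower and 9846 higher in GFP+ cells, and 4015 were under 0.05. Genes at 0 throughout 1 fraction were left in these counts and in the 9, but not in the 42. Of 21 tested genes of the Rhox cluster other than *Rhox5*, 18 were at 0 in all oculomotor GFP+ samples and were tested only through the spinal ones. None of the 21 was called in GFP+ cells by limma, with 14 at an unadjusted p under 0.05, a count that rests on genes that could differ in 1 direction only. Near-identical Rhox copies may share reads. *Rhox6* was at 39.5 ± 15.7 RPKM in spinal GFP− against 4.6 ± 3.99 in oculomotor GFP− cells, with no overlap between groups (limma, adjusted p = 0.0517). In GFP+ cells it was at 15.0 ± 21.7 against 0.0711 ± 0.174. The neighbour *Rhox9* was at 6.16 ± 9.05 RPKM in spinal GFP+ cells and listed at 0 in all oculomotor GFP+ samples.

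The spinal samples with the highest germline levels also held the most RNA of pluripotency genes. Their mean log2(RPKM + 1) in spinal GFP+ cells was lowest in sample 3 (0.516) and highest in samples 5 (3.31) and 4 (3.68). The 19 pluripotency genes summed to 29.4 RPKM in that sample 3, to 558 to 1158 in samples 1, 2 and 6, and to 12570 and 5776 in samples 5 and 4. *Dppa5a* alone reached 12330 RPKM among these samples. *Pou5f1* was at 2.15 RPKM in sample 5, near samples 1 (2.22) and 2 (2.1), and at 31.5 in sample 4. *Nanog* was at 40.5 and 156 RPKM in samples 5 and 4, and at most 24.4 in the others. The order of the sums was not kept throughout, since sample 6, with 1158 RPKM, had a lower germline mean (1.6) than sample 2 (2.26), with 558. In spinal GFP− cells, sample 4 had the highest germline mean (3.81) and a pluripotency sum of 6467 RPKM, and the other 5 samples had sums of 180 to 479 with germline means of 1.26 to 2.12. Oculomotor GFP− cells had pluripotency sums of 913 to 9987 RPKM with germline means of 0.612 to 2.28. Those 6 sums were above the sums of 5 of the 6 spinal GFP− samples. *Stra8* was lower in each oculomotor GFP− sample than in every spinal GFP− sample. Line, transgene and patterning factors differ between these groups as well. Between the oculomotor fractions 12 of 19 pluripotency genes were called lower in GFP+ cells, among them *Dppa5a* (74.2 ± 87.8 against 5456 ± 3241 RPKM, limma, adjusted p = 0.0025) and *Nanog* (1.53 ± 1.18 against 42.5 ± 24.6, limma, adjusted p = 0.0195). The part of remaining pluripotent cells in the germline values was not tested.

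**Figure D5:**
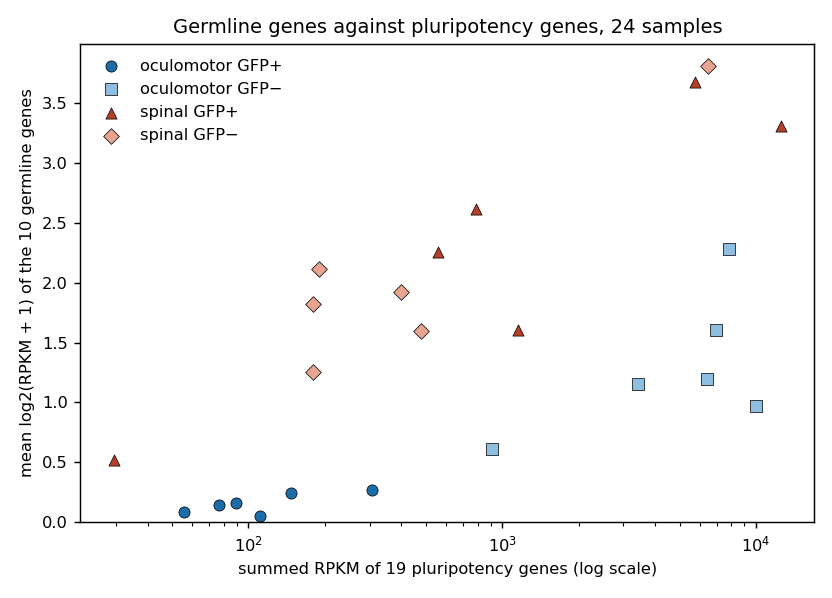
Mean log2(RPKM + 1) of the 10 germline genes (y axis) against the summed RPKM of 19 pluripotency genes (x axis, log scale) in the 24 samples, with a symbol for each sorted group. Oculomotor GFP+ samples sit at the bottom left, and oculomotor GFP− samples reach pluripotency sums up to 9987 RPKM with germline means of at most 2.28.

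Markers of other cells were read beside this. Of 9 genes of germ cell specification none was called in GFP+ cells by limma. Of the 9, 4 had an unadjusted p under 0.05, as had 1951 of all 19240 genes tested. *Dppa3*, a primordial germ cell and stem cell gene, was at 77.9 ± 130 in spinal and 0.176 ± 0.43 RPKM in oculomotor GFP+ cells. *Sox17*, also an endoderm gene, was called higher in spinal GFP− than in oculomotor GFP− cells (5.48 ± 3.29 against 0.536 ± 0.402 RPKM, limma, adjusted p = 0.0049) and lower in spinal GFP+ than in spinal GFP− cells (0.0202 ± 0.0494, limma, adjusted p = 0.000397). The list summed to 22.5 to 887 RPKM in spinal GFP+, 32.7 to 855 in spinal GFP−, 69.9 to 435.5 in oculomotor GFP− and 2.03 to 93.8 in oculomotor GFP+ samples. Genes of the 2-cell embryo state were near 0 in all oculomotor samples, with sums of at most 1.11 RPKM, and summed to 59.7 to 1097 in spinal GFP+ samples, where 7 of 18 were called higher, with 17 of the 18 at 0 in all oculomotor GFP+ samples. *Zscan4f* was at 70.8 ± 61.9 RPKM in spinal GFP+ cells, with 11.8 in the lowest sample, and its near-identical copies may share reads. Among Sertoli and gonad genes, *Gata4* was at 10.8 ± 6.15 in spinal GFP− and 1.25 ± 0.976 RPKM in oculomotor GFP− cells (limma, adjusted p = 0.00594), and it and *Sox9* are also made outside the gonad. Their part in the germline values was not tested.

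Retinoic acid, the inducer of *Stra8* in the gonad, was given to the spinal cultures alone. Of its known target genes, 3 of 11 were called higher and 1 lower in spinal GFP+ cells, and 5 of 12 were called higher and none lower in spinal GFP− cells. Over all genes, 48 of 19240 were called higher and 68 lower in GFP+ cells, and 122 of 22179 higher and 91 lower in GFP− cells. The gene called lower was *Crabp1*, at 226 ± 166 in spinal and 2836 ± 2345 RPKM in oculomotor GFP+ cells (limma, adjusted p = 0.01735), with no overlap between groups. *Rarb*, a retinoic acid receptor and target, was at 25.9 ± 15.0 against 0.926 ± 0.648 RPKM in GFP+ cells (limma, adjusted p = 0.000788). *Cyp26a1*, which degrades retinoic acid, was at 90.9 ± 53.9 against 4.83 ± 3.8 in GFP− cells (limma, adjusted p = 0.000485). It fell in spinal GFP+ cells to 5.39 ± 8.42, below every GFP− sample (limma, adjusted p = 0.000267). *Stra8* differed by 0.02 ± 0.993 between the spinal fractions. The part of retinoic acid in the *Stra8* values was not tested. It changed together with line, reporter and transgene, so their effects cannot be told apart.

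Most genes that set, copy or remove DNA methylation, and most of PRC1.6 and its partners, were transcribed in all groups. In every sample 7 to 9 of 9 genes of DNA methylation, among them the demethylation genes *Tet1*, *Tet2*, *Tet3* and *Tdg*, exceeded 1 RPKM. So did 20 to 22 of 22 genes of PRC1.6 and its partners. *Dnmt3l* was above 0 in only 1 oculomotor GFP+ sample. Of the 9 genes of DNA methylation none was called between the cultures by limma in either fraction, with 1 at an unadjusted p under 0.05 in each. Over all genes, 1951 of 19240 in GFP+ and 2500 of 22179 in GFP− cells were under 0.05. *Uhrf1* was at 20.5 ± 21.2 in spinal and 14.5 ± 12.2 RPKM in oculomotor GFP+ cells. Between the oculomotor fractions the de novo methyltransferase *Dnmt3b* was lower in GFP+ cells (2.49 ± 1.76 against 33.0 ± 34.5 RPKM, limma, adjusted p = 0.0118), as was its cofactor *Dnmt3l* (0.0841 ± 0.206 against 8.95 ± 8.8, limma, adjusted p = 0.0142), and the demethylase gene *Tet3* was higher (5.28 ± 2.33 against 1.72 ± 0.684, limma, adjusted p = 0.0279). Of the 22 genes of PRC1.6 and its partners none was called between the cultures in GFP+ cells by limma, with 3 at an unadjusted p under 0.05, and *Cbx1* was called lower in spinal GFP− cells (20.3 ± 6.37 against 41.5 ± 7.64 RPKM, limma, adjusted p = 0.0316). *E2f6*, looked up after its values were seen because its motif was searched, had means of 19.3 ± 6.54 in oculomotor GFP+, 16.4 ± 2.63 in oculomotor GFP−, 15.2 ± 5.3 in spinal GFP+ and 12.7 ± 5.67 RPKM in spinal GFP− cells.

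Over the 12 spinal samples each gene was compared with the mean of the other 9. Pearson's r was highest for *Stra8* (0.87), *Hormad1* (0.858) and *Dazl* (0.828) and lowest for *Tex101* (0.216), with *Rhox5* at 0.439. Without spinal pair 4 the values were 0.757, 0.763, 0.678, 0.324 and 0.357. Outside the lists, 12123 genes were compared with the mean of all 10, and the 10 nearest had r of 0.932 to 0.966. They were *Hspb1*, *Gm13147*, *Aqp3*, *Spp1*, *Zfp600*, *Zfp987*, *1700019D03Rik*, *4930566F21Rik*, *Rex2* and *Zfp979*. Without spinal pair 4 these were 0.855 to 0.93. The small heat shock protein gene *Hspb1*, nearest in r, was at 2.42 RPKM in oculomotor GFP+ cells on average and at 70.8, 71.2 and 64.1 in oculomotor GFP−, spinal GFP+ and spinal GFP− cells. The points are samples that share libraries, depth and cell makeup, and no test was made.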

How the data were processed

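RNA of sorted cells was amplified with Smart-seq2, without molecular identifiers. The authors mapped reads to mm10 with HISAT2 2.0.3 and deposited RPKM values from rpkmforgenes for 24 samples in 4 groups of 6; the annotation was not given in the sources used here. Genes above 0 RPKM in at least 2 samples were tested on log2(RPKM + 1) with limma 3.58.1 (R 4.3.3, trended variance), with Benjamini-Hochberg adjustment over all genes and a threshold of 0.05. The GFP+ cultures were compared in the 12 GFP+ samples and other contrasts in all 24. The 10 genes and all lists were chosen with earlier results of these data known. Outside the 10 genes, each list was named by at most 4 called genes of largest difference or, with none called, the 2 of highest mean RPKM. The limma fit was checked on simulated data. Depth was estimated from the steps of low values, of which 94.32% to 97.06% were whole reads within 0.02. It limits the detection of low genes, and 1 read was worth up to 1.76 RPKM for *Rhox5* in the shallowest sample. p-values measure the spread between samples. Fractions with the same replicate number deviated together (r = 0.379 to 0.728 in oculomotor and 0.421 to 0.661 in spinal cultures, 6 of 6 pairs each, over 11950 genes). They were taken as pairs in the counts of pairs and in the replicate block. The main limma fits did not use the pairing, so their p-values between fractions are unpaired. Gene positions were from GENCODE M21 and promoters from RefSeq, both on GRCm38, with 10 of 10 genes matched. Alternatives were other offsets, filters, scalings, weights, sample sets, left-out samples and a replicate block.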

Additional observations from a re-analysis of the deposited data

Results flagged for a closer look

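In 9 of the 36 groups of 6 values tested for the 10 genes, the highest sample stood far from the other 5. Chance flags about 1 in 20 groups, and groups near 0 are flagged by 1 sample with a read. In the spinal GFP− group, sample 4 held *Stra8* at 427.5 RPKM (next 45.1), *Mael* at 6.52 (next 0.474) and *Sycp1* at 3.37 (next 0.231). In spinal sample 1, *Tex101* was at 3.02 RPKM in GFP+ (next 0.309) and at 0.496 in GFP− cells (next 0.142). *Mael* was at 6.16 RPKM in oculomotor GFP− sample 1 (next 1.08). In oculomotor GFP+ cells, *Dazl* was at 0.0732 RPKM in sample 1, *Taf7l* at 0.121 in sample 2 and *Hormad1* at 0.0837 in sample 6, with the other 5 samples at 0 in each case.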

How the results depend on the processing

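The median difference of the 10 genes in GFP+ cells (1.38) was 2.88 with an offset of 0.1 RPKM and 5.65 under the stricter filter, which left 1 of the genes. In GFP− cells the median (0.37) ran from -0.295 to 0.653 over 36 alternatives, and was -0.295 without spinal pair 4 and spinal GFP− sample 2, alternatives chosen after seeing the data, as were replicates 5 and 6 alone. The count of calls between the oculomotor fractions (2) was 1 with replicates 1 to 4, 0 with replicates 5 and 6 and 4 with the oculomotor samples alone. With the oculomotor samples alone, 1144 of 18932 genes were called lower in GFP+ cells, against 519 of 22179 in the main fit. Between the spinal fractions (0) it was 1 with replicates 5 and 6 (*Mael*). With the replicate block the interaction count (0) was 1, also without spinal pair 4, and the block changed no other call of the 10 genes between fractions. Between the cultures, samples of the same number deviated together only in part, with r above 0.1 in 4 of 6 pairs of each fraction. This r ran from -0.175 to 0.707 in GFP+ and from -0.0385 to 0.612 in GFP− cells. The main fits between the cultures did not use the numbers. Calls among other germline genes in GFP+ cells (1) were 4 with the offset of 0.1, 2 under the stricter filter, 3 with quality weights or all samples fitted, and 0 with replicates 1 to 4 or 5 and 6. For them the block gave 1 call between spinal fractions (0), and 2 without spinal pair 4, where it gave 1 in GFP− cells (0). Leaving out 1 sample gave medians of 1.25 to 1.68 in GFP+ and 0.048 to 0.653 in GFP− cells, 0 calls between spinal and 2 between oculomotor fractions, 0 to 1 in the interaction, 0 to 3 among other germline genes in GFP+ cells and 0 in their other counts. The cause of these changes was not tested. Over all genes the block gave 295 higher and 354 lower calls between spinal fractions (88 and 184 without it), 1823 and 1821 between oculomotor fractions (845 and 519), 264 and 189 in the interaction (13 and 58), 281 and 282 in GFP− (122 and 91) and 28 and 45 in GFP+ cells (48 and 68).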
